A study of Mus musculus with 2 samples.

Results

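The miR-181 family of the mouse is encoded by 6 microRNA genes, which lie as 3 clusters of 2: Mir181a-1 with Mir181b-1, Mir181a-2 with Mir181b-2, and Mir181c with Mir181d. All 6 were among the 1973 microRNA genes counted in skeletal muscle of newborn mice. The genes were selected by symbol, and the family was chosen from earlier results of these same 2 libraries, in which Mir181b-2 stood out between the libraries. The levels and the ratios between libraries that follow are therefore descriptions, given without a test. Small RNA below a length of 30 bases was sequenced from muscle of strain B6NCrl at postnatal day 0, in 2 libraries that the labels number as biological replicates 1 and 2. Each library came from a portion of the organ of 1 pup, and the samples carry 1 donor record in common, so that 2 separate pups are an assumption. No treatment or genotype was compared. Sex was not collected.

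MicroRNAs are cut from hairpin transcripts, in which the 5p and the 3p arm pair with each other. One arm is usually the more abundant guide, and its bases 2 to 8, the seed, pair with target messenger RNAs and lower their output. The miR-181 guides are 5p arms. They are known from lymphocyte development, brain and blood vessels, and in muscle miR-181 has been linked to differentiation of myoblasts through the homeobox protein Hox-A11, a repressor of that process.

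The mature sequences show what the members have in common and where they differ, with bases 2 to 8 in capitals. All 6 genes matched RefSeq entries (GRCm38.p6), which give 10 distinct mature RNAs. The 5p arm of Mir181a-1 and Mir181a-2 is one and the same RNA, and so is that of Mir181b-1 and Mir181b-2. The 5p arms, written 5′ to 3′, are:
miR-181a-5p: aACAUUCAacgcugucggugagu
miR-181b-5p: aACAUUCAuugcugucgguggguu
miR-181c-5p: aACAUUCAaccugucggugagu
miR-181d-5p: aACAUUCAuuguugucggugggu

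The 4 distinct 5p arms have 1 seed, and 0 other mature RNAs of the RefSeq table have it. Counted from the 5′ end, miR-181a-5p and miR-181b-5p differ by A9U, C10U and A21G, besides 1 base of length. From miR-181b-5p to miR-181d-5p the substitution is C12U, again with a difference of 1 base in length. A single inserted or deleted base separates miR-181a-5p from miR-181c-5p.

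The 3p arms differ between all 6 genes, which makes them the arms by which the copies can be told apart:
miR-181a-1-3p: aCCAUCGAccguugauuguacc
miR-181a-2-3p: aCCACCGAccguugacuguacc
miR-181b-1-3p: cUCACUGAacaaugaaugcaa
miR-181b-2-3p: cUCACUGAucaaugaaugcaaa
miR-181c-3p: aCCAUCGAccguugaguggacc
miR-181d-3p: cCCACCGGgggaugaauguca

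Among these, miR-181a-1-3p and miR-181c-3p have the same seed, as do miR-181b-1-3p and miR-181b-2-3p. From miR-181a-1-3p to miR-181a-2-3p the changes are U5C and U16C. From miR-181b-1-3p to miR-181b-2-3p there is A9U and 1 further base at the 3′ end. The GC content of the 3p arms was 50% and 59.1% for the copies of miR-181a, 38.1% and 36.4% for those of miR-181b, 59.1% for miR-181c and 61.9% for miR-181d.

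Which reads could be counted follows from this sequence. The authors kept multiply fitting reads out of the gene counts. They numbered 4594061 (28.01% of all reads) in replicate 1 and 5655304 (26.9%) in replicate 2. The hairpins of Mir181a-1 and Mir181a-2 have an identical stretch of 28 bases, which holds the whole 5p arm of 23 bases, 1 base before it and 4 after it. For Mir181b-1 and Mir181b-2 the identical stretch has 26 bases and holds the 5p arm of 24 bases with 2 bases before it and 0 after it. A read inside such a stretch fits both copies, while reads of a 3p arm, or reads that run past the stretch, match 1 copy without a mismatch. The counts of these 4 genes therefore leave out 5p reads inside the stretch. Neither arm of Mir181c or Mir181d holds a window of 20 bases found in another annotated microRNA hairpin, so no shared stretch was found that would keep their reads out. The rest of the genome was not searched, and the mismatches allowed in mapping are not known. The tables give 1 count per gene and do not divide it between arms.

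**Figure D1:**
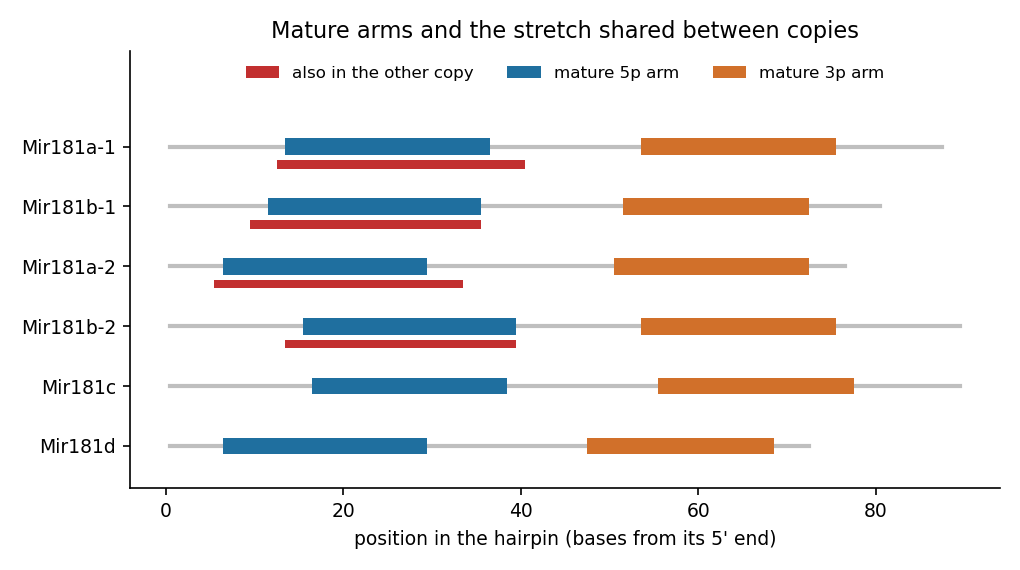
Position in the hairpin, in bases from its 5′ end, of the mature 5p arm (blue) and 3p arm (orange) of each gene. Red bars mark the stretch found also in the other copy, 28 bases for the Mir181a genes and 26 for the Mir181b genes; it covers the 5p arm each time and reaches no 3p arm, and Mir181c and Mir181d have none.

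On GRCm38, Mir181a-1 lies on chromosome 1 from 137966455 to 137966541, on the plus strand, and Mir181b-1 from 137966639 to 137966718, 97 bases further on. Both are in an intron of the noncoding gene Gm4258. On the same strand Mir181b-1 lies wholly in the exon of the long noncoding RNA A430106G13Rik, which overlaps the last 11 bases of Mir181a-1. Mir181a-2 lies on chromosome 2 from 38852735 to 38852810 and Mir181b-2 from 38853830 to 38853918, 1019 bases apart and both on the plus strand. This pair is antisense to an intron of Nr6a1, which encodes an orphan nuclear receptor. Mir181b-2 also lies opposite an exon of Gm44144, a model of the class that GENCODE marks for experimental checking. Mir181c (84178873 to 84178961) and Mir181d (84178716 to 84178787) lie 85 bases apart on the minus strand of chromosome 8, in an intron of Nanos3, a gene of germ cell development. None of the 6 genes had a count on the opposite strand in either library, which allows up to 3 counts in each. Mir181c has identifier version 1 in the tables and 2 in the annotation used for coordinates, so its counted interval may differ from the one printed.

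Replicate 1 held 7955914 counts on the annotated strand of microRNA genes and replicate 2 held 10816295. Levels are given as CPM (each library scaled to its own total, per 1000000 counts), with 95% exact Poisson intervals that cover counting error only. A count of 3 corresponds to 0.377 CPM in replicate 1 and 0.277 in replicate 2. Of the 1973 genes, 365 had at least 10 counts in both libraries and are called detected here. All 6 members passed that minimum. The libraries carried the muscle microRNA genes Mir206 at 107144 and 120690 CPM and Mir133b at 841 and 823 CPM. All 5 skeletal muscle markers were detected, the lowest being Mir1a-1 at 10.1 CPM in replicate 1 and 6.47 in replicate 2. The mature RNA of Mir1a-1 is also encoded by another copy, whose identical reads were left out. Its low value is therefore not the level of that microRNA in muscle.

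The family as a whole took 25381 counts in replicate 1 and 27869 in replicate 2, which is 0.319% and 0.258% of microRNA counts, or 0.288% ± 0.0434 (SD, n = 2). Mir181c and Mir181d together made up 69.5% and 64.9% of the family's counts, Mir181a-1 and Mir181b-1 20.7% and 30.7%, and Mir181a-2 and Mir181b-2 9.81% and 4.42%. This order of the clusters held in both libraries. It compares genes without a shared stretch with genes whose identical 5p reads are missing, so it is an order of countable reads and not of microRNA output.

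Mir181c, the most abundant member, had 12116 counts in replicate 1 (1523 CPM, interval 1496 to 1550) and 13245 in replicate 2 (1225 CPM, 1204 to 1246). It stood at rank 74 of the 365 detected genes by mean CPM. Its neighbour Mir181d had 5531 counts (695 CPM, 677 to 714) and 4846 counts (448 CPM, 436 to 461), rank 113. For both genes replicate 1 held the higher CPM, as it did for the median detected gene. On these library totals the log2 ratio of replicate 1 over replicate 2 was 0.31 for Mir181c and 0.63 for Mir181d. The median of all detected genes was 0.26.

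Mir181a-1 had 5189 counts in replicate 1 (652 CPM, 635 to 670) and 8530 in replicate 2 (789 CPM, 772 to 806), rank 106. Its other copy, Mir181a-2, had 177 counts (22.2 CPM, 19.1 to 25.8) and 356 counts (32.9 CPM, 29.6 to 36.5), rank 229. Both copies of miR-181a were thus higher in replicate 2.

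Mir181b-2 had 2313 counts in replicate 1 (291 CPM, 279 to 303) and 875 in replicate 2 (80.9 CPM, 75.6 to 86.4), rank 152. Mir181b-1 was the lowest member, with 55 counts (6.91 CPM, 5.21 to 9.00) and 17 counts (1.57 CPM, 0.916 to 2.52), rank 301. The copies of miR-181b were both higher in replicate 1, opposite to their cluster partners.

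In order of mean CPM ± SD (n = 2) the members were Mir181c (1374 ± 211), Mir181a-1 (720 ± 96.5), Mir181d (572 ± 175), Mir181b-2 (186 ± 148), Mir181a-2 (27.6 ± 7.54) and Mir181b-1 (4.24 ± 3.78). Mir181a-1 and Mir181d did not differ beyond their spread: Mir181d was the higher of them in replicate 1 and Mir181a-1 in replicate 2. The other neighbours in this order kept their places in both libraries.

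**Figure D2:**
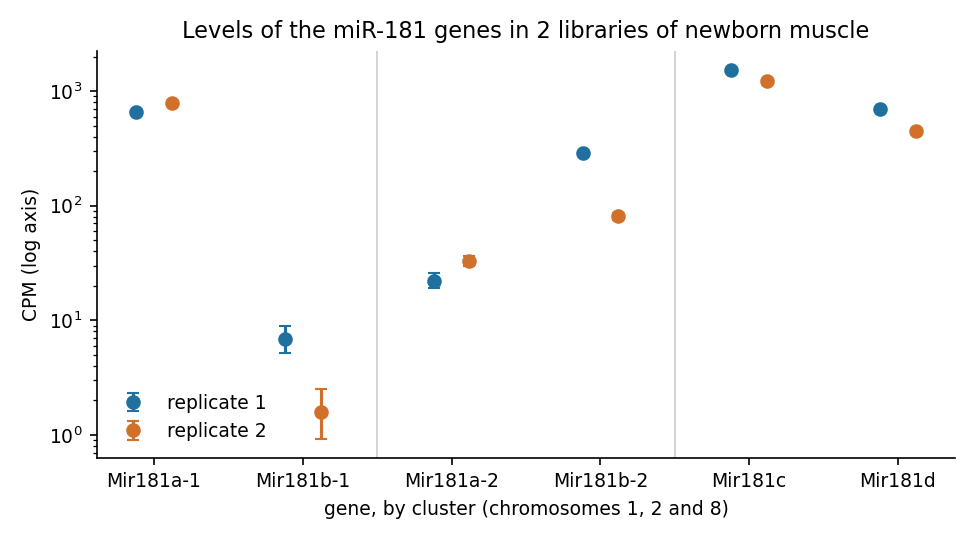
CPM (log axis) of the 6 genes, grouped by cluster, in replicate 1 (blue) and replicate 2 (orange), with 95% exact Poisson intervals. Mir181a-1 and Mir181a-2 sit higher in replicate 2, the other 4 genes in replicate 1, and Mir181b-2 has 291 and 80.9 CPM.

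Within a cluster the ratio of the partners does not depend on library size. On chromosome 8, Mir181c exceeded Mir181d 2.19-fold (95% exact counting interval 2.12 to 2.26) in replicate 1 and 2.73-fold (2.64 to 2.83) in replicate 2. The mean was 2.46-fold ± 0.384 (SD, n = 2), and neither gene has a stretch shared with another annotated microRNA hairpin. On chromosome 1, Mir181a-1 exceeded Mir181b-1 94.3-fold (72.4 to 125) in replicate 1 and 502-fold (313 to 862) in replicate 2. On chromosome 2 the order was the reverse: Mir181b-2 exceeded Mir181a-2 13.1-fold (11.2 to 15.3) in replicate 1 and 2.46-fold (2.17 to 2.79) in replicate 2. So the a copy led on chromosome 1 and the b copy on chromosome 2, in both libraries. The partners of a cluster lie at most 1019 bases apart. Counts of the a and b genes leave out 5p reads inside the shared stretch. Their ratios therefore compare countable reads and not microRNA output. The ratio of a over b was higher in replicate 2 by 5.32-fold on chromosome 1 and by 5.32-fold on chromosome 2, and that of Mir181c over Mir181d by 1.25-fold.

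The same contrast was then taken gene by gene, as the log2 ratio of replicate 1 over replicate 2 after scaling library sizes by the trimmed mean of M values (TMM). With 1 library on each side there is no test, and 2-fold serves as the mark. Mir181b-1 had a ratio of 1.89 (counting interval 1.09 to 2.77) and Mir181b-2 of 1.60 (1.49 to 1.71). Mir181d stood at 0.39 (0.33 to 0.44) and Mir181c at 0.07 (0.03 to 0.10). Mir181a-1 stood at -0.52 (-0.57 to -0.47) and Mir181a-2 at -0.81 (-1.08 to -0.55). By size of the ratio in either direction, Mir181b-1 and Mir181b-2 ranked 7 and 10 of 365 detected genes, Mir181a-2 ranked 48, Mir181a-1 98, Mir181d 148 and Mir181c 321. The summed counts of the family had a ratio of 0.06, since members with ratios above and below 0 offset each other in the sum.

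Of the 6 members, 2 were at least 2-fold higher in replicate 1, against 7.12% of the 365 detected genes, and 0 were at least 2-fold higher in replicate 2, against 1.10%. The median ratio of the members was 0.23 and that of all detected genes 0.01. With library totals in place of TMM these medians were 0.47 and 0.26, and each member kept its direction. Since the family was chosen with this contrast in view, nothing is read from these counts.

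**Figure D3:**
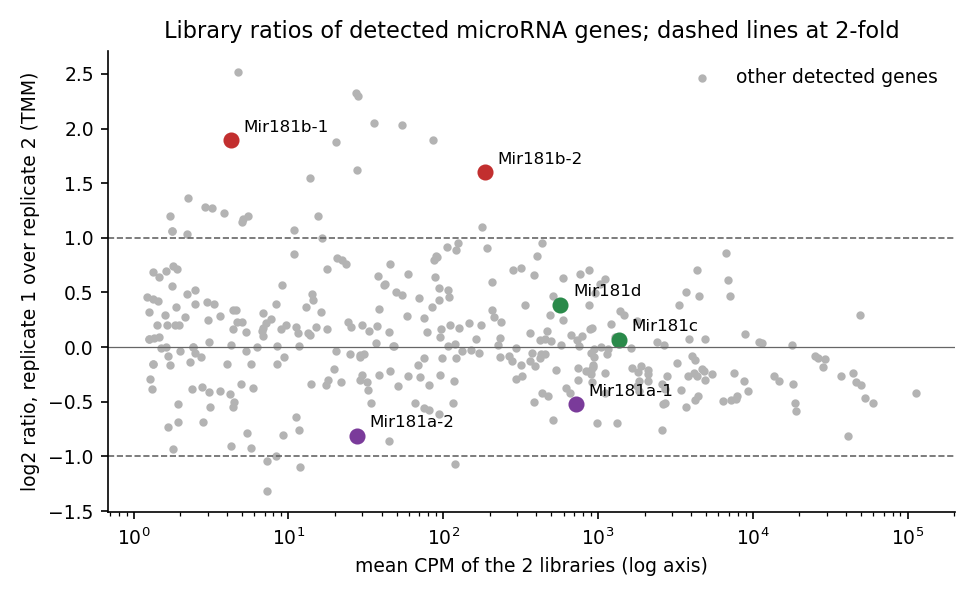
Log2 ratio of replicate 1 over replicate 2 (TMM) against mean CPM (log axis) for the 365 detected microRNA genes, each point a gene, with dashed lines at 2-fold. Mir181b-1 and Mir181b-2 (red) lie above the upper line at 1.89 and 1.60, while Mir181a-1 and Mir181a-2 (purple) lie below 0 and Mir181c and Mir181d (green) above it.

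Neighbouring microRNA genes are often cut from 1 primary transcript, so their library ratios can be set side by side, with library scaling cancelled. Over 103 other pairs of detected genes that are next neighbours on 1 strand within 10 kb, the partners' log2 ratios differed by a median of 0.31, and by at most 0.94 in 90% of pairs. The pair Mir181c and Mir181d differed by 0.32, close to that median. Mir181a-1 and Mir181b-1 differed by 2.41, and Mir181a-2 and Mir181b-2 also by 2.41. These were the highest values of all 106 pairs. The next was 1.68, for Mir92-2 and Mir20b of the miR-106a-363 cluster. Of the 83 other pairs in which every count was at least 100, the most different reached 1.24, and Mir181a-2 with Mir181b-2, whose lowest count was 177, would belong among them. Pairs that have a gene in common are not independent. The family was chosen because Mir181b-2 stood out between these libraries, so a high place of its pair was favoured in advance. The comparison is a description, and nothing is read from these ranks.

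**Figure D4:**
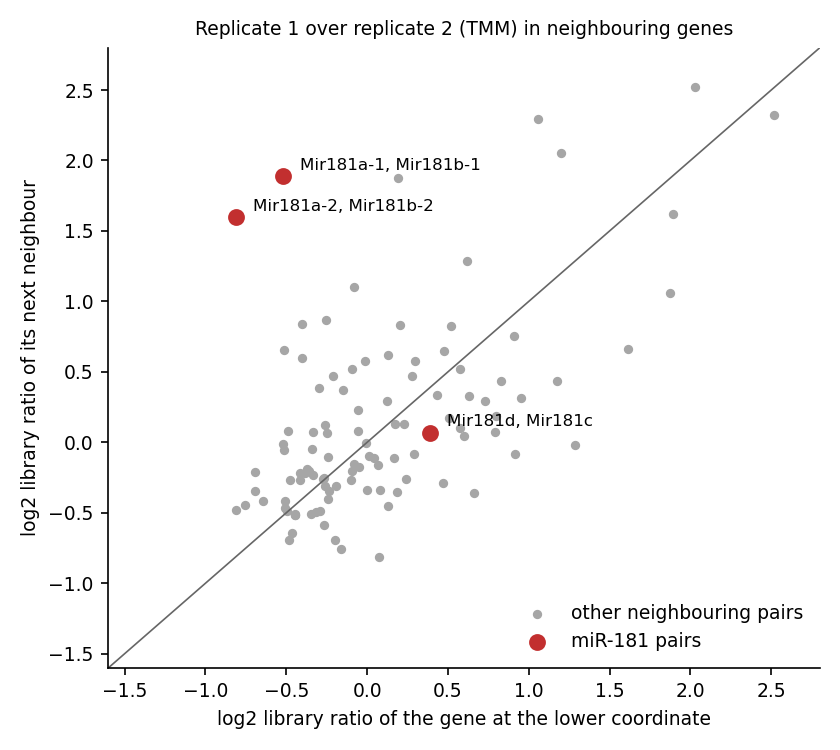
Log2 ratio of replicate 1 over replicate 2 (TMM) of each detected gene (x axis) and its next neighbour on the same strand within 10 kb (y axis), for 106 pairs; the line marks equal ratios. The points of Mir181a-1 with Mir181b-1 and Mir181a-2 with Mir181b-2 lie farthest from the line, each by 2.41 on the log2 scale, and Mir181d with Mir181c lies near it.

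A list of other microRNA clusters that exist as paralogs showed smaller differences between partners. The choice of the family favoured this in advance, so nothing is read from it. Mir15b and Mir16-2 differed by 1.18 on the log2 scale and Mir30c-1 and Mir30e by 1.12. Mir23a and Mir27a differed by 0.29, Mir16-1 and Mir15a by 0.31, Mir30b and Mir30d by 0.20, Mir221 and Mir222 by 0.17, Mir27a and Mir24-2 by 0.13, and Mir23b and Mir27b by 0.05. Beyond that list, Mir19b-1 and Mir92-1 differed by 1.30 (lowest count 16), and Mirlet7d and Mirlet7a-1 by 1.24 (lowest count 624). Mir18b and Mir106a differed by 1.24 (lowest count 11). Partners had opposite signs in Mir19b-1 with Mir92-1, Mirlet7d with Mirlet7a-1, Mir15b with Mir16-2 and Mir30c-1 with Mir30e. In the other pairs of this paragraph the signs were the same.

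Across loci, in contrast, the same-named copies had similar ratios. Mir181a-1 exceeded Mir181a-2 29.3-fold (95% exact counting interval 25.2 to 34.2) in replicate 1 and 24.0-fold (21.5 to 26.7) in replicate 2. Mir181b-2 exceeded Mir181b-1 42.1-fold (32.2 to 56.0) and 51.5-fold (32.0 to 88.8). On the log2 scale the library ratios of the copies differed by 0.29 for miR-181a and by 0.29 for miR-181b, where 15 other pairs of same-named detected copies differed by a median of 0.39 and at most 0.73. The copies lie on chromosomes 1 and 2, and the partners, which lie side by side, differed by 2.41. Copies have near-identical 3p arms, with U5C and U16C between those of miR-181a and A9U between those of miR-181b. Whether some counts of the lower copy are reads of the higher one was not tested, so the 2 clusters may not be separate observations of this pattern.

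GC content moved with these ratios only weakly over all genes. The 3p arms of the miR-181b copies, at 38.1% and 36.4% GC, are below the median of 50% over the 302 detected genes with a 3p entry, and those of the miR-181a copies, at 50% and 59.1%, are not. Over those 302 genes, which come from 1 pair of libraries, GC content of the 3p arm and the library ratio had a Spearman's rho of -0.18. For hairpins of all 365 detected genes rho was -0.11. The part of base composition in the ratios of the members was not tested.

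The genes nearest to each member in both libraries were sought over the 2 CPM values on a log2 scale. Mir181c lay nearest to Mir196a-2 (1438 and 1137 CPM in replicates 1 and 2) and Mir15a (1667 and 1121), and Mir181d to Mir320 (692 and 491) and Mir16-1 (767 and 417). Mir181a-1 lay nearest to the slow-muscle microRNA gene Mir208b (732 and 763) and to Mir615 (619 and 700). For Mir181a-2 they were Mir6923 (28.3 and 29.3) and Mir30c-1 (29.7 and 29.9). Mir181b-2 lay nearest to Mir16-2 (254 and 99.7) and Mir224 (266 and 120), and Mir181b-1 to the epithelial Mir200a (8.17 and 1.20) and to Mir5113 (5.66 and 2.03). The distances were 0.13 to 0.19 for Mir181c, Mir181a-1 and Mir181d and 0.36 to 0.58 for the other 3 genes, so the former had closer matches.

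MicroRNAs linked to muscle differentiation formed a list of 20 genes, of which 18 were in the tables and 16 detected. None of the 16 reached 2-fold in either direction, and their median log2 ratio was -0.01. Mir206, the highest, stood at -0.42, and Mir322, of a chromosome X cluster linked to differentiation, at -0.08.

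Since miR-181 is also known from lymphocytes, neurons and endothelium, markers of these cells were set beside it. Leukocyte genes summed to 753 CPM in replicate 1 and 546 in replicate 2 over the 5 genes in the tables, of which 4 were detected and 0 reached 2-fold. Their highest were the myeloid Mir223 (528 and 403 CPM) and Mir146 (118 and 68.4), with Mir146b at 5 and 0 counts. Neuronal genes summed to 1011 and 981 CPM over 8 genes, of which 5 were detected. The copies Mir138-1 and Mir138-2 were at least 2-fold higher in replicate 1, with log2 ratios of 1.55 and 1.00. The most abundant neuronal genes, Mir128-1 (485 and 427 CPM) and Mir128-2 (354 and 423), stood at -0.06 and -0.50. Mir124a-1 had 0 counts in both libraries, and Mir9-2 and Mir9-3 had at most 8. The mature RNAs of these genes are also encoded by other copies, whose identical reads were left out, so these low counts say nothing about neurons. Endothelial Mir126a had 44986 and 47428 CPM, a ratio of -0.32. Of the paralog clusters, 20 of 22 genes were detected and 1, Mir16-2, reached 2-fold, in replicate 1. Their highest members, Mir23a (17615 and 18820 CPM) and Mir23b (13650 and 13791), stood at -0.34 and -0.26.

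Markers of epithelia and of sensory epithelia were added after the ratios were seen, because several were among the highest in the contrast in which the miR-181b genes stood out. By size of the library ratio, Mir200a, Mir200b, Mir200c and Mir429 of the epithelial miR-200 family ranked 1, 2, 4 and 5 of the 365 detected genes, and the sensory Mir182 and Mir96 ranked 6 and 9, next to Mir181b-1 and Mir181b-2 at 7 and 10. Their log2 ratios were 2.52, 2.32, 2.05 and 2.03 for the miR-200 genes, 1.89 for Mir182 and 1.62 for Mir96. Mir141, also of the miR-200 family, stood at 1.20 and Mir183, the neighbour of Mir96, at 0.67. The skin microRNA genes Mir203 and Mir205 stood at -0.12 and -0.07. Ranks 3 and 8 were held by Mir106a (2.30) and Mir20b (1.87) of the miR-106a-363 cluster, which is on neither list. Rank 11 was the neuronal Mir138-1 (1.55). Over the whole lists, the 7 epithelial genes summed to 531 CPM in replicate 1 and 334 in replicate 2, with 5 at least 2-fold higher in replicate 1, and the 3 sensory genes to 262 and 85.1 CPM, with 2. All 10 genes were detected. In tissue RNA, fewer cells of a type and less RNA per cell cannot be told apart, and the part of other cell types in the levels of the 6 genes was not tested.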

How the data were processed

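The authors deposited, for each library, raw counts per microRNA gene in 3 columns, which add up as either strand, annotated strand and opposite strand. The larger strand column was taken as the annotated one, an inference from the values. The assembly was mm10 and the annotation GENCODE M4, per the readme texts deposited with the tables; the aligner and the counting tool were not stated (not given in the sources used here). Rows for unmapped, multiply fitting and unassigned reads (16.0%, 28.01% and 1.60% of reads in replicate 1, 13.4%, 26.9% and 1.43% in replicate 2) stayed out of library sizes.

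Symbols, coordinates and hairpins came from GENCODE M21 (GRCm38, the same assembly as mm10) by gene ID without version, which matched 1894 of 1973 genes. Mature sequences came from RefSeq on GRCm38.p6. Hairpins were searched on both strands for windows of 20 bases found in another annotated microRNA gene; the rest of the genome was not searched. CPM used library totals of annotated-strand counts, and library ratios TMM factors of 1.09 and 0.918 over the 365 detected genes, with a count minimum of 10 in each library (edgeR 4.0.16, R 4.3.3). Counting intervals are exact at 95% (scipy 1.17.1). Scaling was checked on simulated Poisson counts with as many genes raised as lowered. In these libraries 7.12% of detected genes were at least 2-fold higher in replicate 1 and 1.10% in replicate 2. The simulation does not cover that imbalance. The labels list separate tissue portions, and with 1 group of 2 samples no test between groups was made. Ratios therefore measure the spread between these samples, which may be technical.

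The members, lists and comparisons were chosen with earlier results of these data known. Comparing same-named copies, the GC content of arms, and the epithelial and sensory lists were added after the ratios were seen. Named genes are all members, the 2 nearest detected genes of each, the 2 highest of each list and the neighbouring pairs of the paralog list. Others were named after their values were seen. These were Mir92-2, Mir20b, Mir106a, Mir18b, Mir19b-1, Mir92-1, Mirlet7d, Mirlet7a-1, Mir1a-1, Mir138-1, Mir138-2, Mir124a-1, Mir9-2, Mir9-3, Mir146b, the epithelial and sensory genes, and Mir16-2 in its list. Alternatives were counts of either strand, DESeq2 1.42.0 size factors, library totals, count minimums of 1 and 50 and no filter, a fold minimum of 1.5, 0.5 added to counts, windows of 18 and 22 bases, and each replicate left out. Plots used matplotlib 3.10.9, and tables were handled in Python 3.11.15 with numpy 2.4.6 and pandas 2.3.3.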

Additional observations from a re-analysis of the deposited data

How the results depend on the processing

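Under all alternatives run, each member kept the direction of its library ratio and the same number of members, 2, lay past 2-fold; with a fold minimum of 1.5 it was 3, since Mir181a-2 joined. Over scalings, filters and strands, the log2 ratio of replicate 1 over replicate 2 ranged from 1.88 to 2.14 for Mir181b-1, 1.59 to 1.85 for Mir181b-2, 0.37 to 0.63 for Mir181d, 0.05 to 0.31 for Mir181c, -0.53 to -0.27 for Mir181a-1 and -0.83 to -0.57 for Mir181a-2. The ends were DESeq2 size factors and library totals. Ratios between partners involve no scaling; with 0.5 added to each count Mir181a-1 over Mir181b-1 had a mean of 290 in place of 298. Leaving out a library gave the single-library values printed above, between 94.3 and 502 for that ratio, and the family share lay between 0.258% and 0.319%. A library ratio cannot be made with 1 library left out. Windows of 18 and 22 bases found the same number of members, 4, that share a stretch. Alternatives chosen after seeing the data, with neighbours within 2 kb (80 other pairs) or 50 kb (114), left 0 pairs that differed more than Mir181a-2 and Mir181b-2. The choice of the family favoured that pair in advance, so nothing is read from this. No paired analysis was possible because the samples form 1 group. Depth limits Mir181b-1 most, whose 17 counts in replicate 2 leave its log2 ratio between 1.09 and 2.77.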
